A study of Rattus norvegicus with 8 samples.

Results

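The genes described here are 7 transcription factors and regulators that mark the step from dividing retinal progenitor to committed neuron: Neurod1, Neurod4, Olig2, Gadd45g, Sox4, Sox11 and Mybl1. They were found by matching the transcript accession of each gene probe on the array to the RefSeq transcripts of these rat symbols. This gave 10 probes of 45598 gene probes, for 7 of the 16581 gene symbols on the array. Neurod1, Olig2, Gadd45g, Sox11 and Mybl1 had 1 probe each, Neurod4 had 2 and Sox4 had 3.

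RNA came from retinas of Lister hooded rats at postnatal day 0, which were electroporated outside the animal with plasmid DNA at 25 V in pulses of 50 ms. Of the 8 samples, 1 array each, 4 received a Klf4 plasmid and 4 a control plasmid, with no other agent named for either. All explants were cultured for 39 h, dissociated and sorted, so each array reads only the GFP-positive, transfected cells. Replicates are numbered 2 to 5 in both groups, and no label ties them to animals, litters or electroporations, so p-values speak only of how far these samples spread, and that spread may be technical. The labels name neither the promoter of the Klf4 plasmid nor the cell types it entered.

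Newborn rodent retina still holds dividing progenitors. Proneural basic helix-loop-helix (bHLH) factors pair with E proteins on E-box DNA and start neuronal programs, Id and Hes proteins oppose them, and Notch ligands on the committing cell hold its neighbours back. SoxC factors then switch on genes of young neurons. Klf4 is a zinc-finger transcription factor of the Krüppel-like family, and the design asks how its overexpression changes the genes used by these cells.

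No commitment factor passed the test across all 8 arrays. Values are normalised log2 signals: 0 is the array's 75th percentile over gene probes, 1 unit is a doubling, and levels of different probes cannot be compared. The log2 fold change, Klf4 minus control, was below 0 for 6 of the 7 genes and above 0 for Mybl1. It was below 0 for 18280 of all 29988 features tested. The median was -0.27 for the 7 genes, against -0.07 over all 29988 features. With limma and Benjamini-Hochberg adjustment over those features, 0 of 7 passed an adjusted p of 0.05, where 3.67% of all features did (3.2% higher with Klf4 and 0.467% lower). At an unadjusted limma p under 0.05 there were 2, Olig2 and Gadd45g, where 11.9% of all features had one. The groups did not overlap for 1 of 7, Gadd45g, against 10.1% of all features. An exact permutation test of 4 arrays against 4 cannot give less than 0.0286.

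Klf4 replicate 4 stood apart from the other arrays. Leaving it out brought 3 of the 7 genes past the threshold as lower with Klf4 (Neurod1, Olig2 and Gadd45g), where 5.43% of all features passed and 1.36% passed as lower. On that array 72.1% of gene spots were well above background, against 75.2 to 86.5% on the other 7. It correlated with the other Klf4 arrays at 0.953 to 0.964 across probes, against 0.978 to 0.992 among those 3. The scanner software placed both arrays numbered 4 outside its quality limits, and without both of them 0 of 7 passed (3.86% of all features). The part of array quality in the results below was not tested, and the values with and without this array are given.

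Of the other facts that bear on all results, every measured spot of the 10 probes was well above background on every array, and none was saturated. For the second Neurod4 probe the spot on Klf4 replicate 3 was an outlier spot and was left out, so that its fit uses 7 arrays. The arrays numbered 5 of both groups were read in a second scan. All Klf4 arrays lay in slide columns 2 and 4 and all control arrays in columns 1 and 3, so that column and group cannot be told apart. The Klf4 probe on the array read -3.00 ± 0.86 in Klf4 samples and -3.27 ± 0.62 in controls (SD, n = 4 each; limma adjusted p = 0.903), and no source used here places it inside or outside the transfected insert. The retinal markers Pax6, Rax, Six3, Six6, Lhx2, Crx and Otx2 were well above background on every array. Their summed level was 6.77 to 7.68 in Klf4 samples and 7.33 to 7.59 in controls. A summed level is the log2 of the genes' signals added on the linear scale, so the brightest gene, here Otx2, counts most. Crx, a photoreceptor factor, passed as lower with Klf4.

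The windows before the start sites are shown for the 3 genes that passed without Klf4 replicate 4, and for Sox11, which shares an E-box with Gadd45g. They are the 250 bases before the annotated start in RefSeq, assembly GRCr8, 5′ to 3′ on the gene's own strand, and 5 of the 7 genes had an entry. The Gadd45g window lies at chr17:13530352-13530601 on the minus strand, Sox11 at chr6:49738795-49739044 on the minus strand, Olig2 at chr11:43961335-43961584 on the plus strand and Neurod1 at chr3:84770455-84770704 on the minus strand. Capitals mark the E-box CAGCTG.
Gadd45g: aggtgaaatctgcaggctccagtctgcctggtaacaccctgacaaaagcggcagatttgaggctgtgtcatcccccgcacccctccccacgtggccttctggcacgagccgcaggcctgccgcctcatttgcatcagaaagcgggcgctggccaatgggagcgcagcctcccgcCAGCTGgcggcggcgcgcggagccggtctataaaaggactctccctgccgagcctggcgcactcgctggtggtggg
Sox11: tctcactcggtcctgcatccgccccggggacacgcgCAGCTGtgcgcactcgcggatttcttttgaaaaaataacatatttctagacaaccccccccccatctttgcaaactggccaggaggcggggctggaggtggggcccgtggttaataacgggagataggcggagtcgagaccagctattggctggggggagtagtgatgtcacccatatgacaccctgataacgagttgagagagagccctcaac
Olig2: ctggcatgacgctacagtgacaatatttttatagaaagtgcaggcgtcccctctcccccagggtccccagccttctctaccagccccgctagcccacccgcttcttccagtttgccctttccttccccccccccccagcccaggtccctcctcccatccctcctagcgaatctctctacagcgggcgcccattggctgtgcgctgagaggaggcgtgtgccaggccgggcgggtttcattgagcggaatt
Neurod1: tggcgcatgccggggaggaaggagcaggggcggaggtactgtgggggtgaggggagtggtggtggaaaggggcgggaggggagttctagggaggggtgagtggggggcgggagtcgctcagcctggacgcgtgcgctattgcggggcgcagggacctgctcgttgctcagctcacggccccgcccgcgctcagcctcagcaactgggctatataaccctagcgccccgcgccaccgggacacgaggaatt

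An E-box was searched on both strands as CAGCTG, which reads the same on both, and as CAGATG with its reverse complement CATCTG. The Gadd45g window holds CAGCTG with its first base at -76 from the start, and the Sox11 window holds it at -214. Of the 5 windows 2 hold an E-box of these forms, against 24.3% of the 33469 promoters of the same length in the table (CAGCTG 12.0%, CAGATG 14.0%). Other E-box forms were not searched and are not in capitals, so a window may hold more than is counted here. The letters CCCCACCC and CCACACCC, forms of the GT-box or CACCC element that Krüppel-like factors bind, were in 0 of the 5 windows on either strand, against 10.9% of all promoters for either form. G and C made up 69.2% of the Neurod1 window, 66.0% of Gadd45g, 62.0% of Olig2, 56.8% of Sox11 and 53.6% of Neurod4, with a median of 51.2% over all promoters. A match is a description of letters and not a binding site, and a window without one says nothing on binding elsewhere.

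Neurod1, a bHLH factor known in rodent retina for photoreceptor and amacrine cell differentiation, read lower with Klf4 on 3 arrays of 4. Its log2 signals were 4.65, 4.66, 5.59 and 4.40 in Klf4 replicates 2 to 5, against 5.24, 5.01, 5.11 and 5.04 in control replicates 2 to 5. Klf4 replicates 2, 3 and 5 lay below every control and replicate 4 above every control, so the groups overlapped. The means were 4.82 ± 0.52 with Klf4 and 5.10 ± 0.10 in controls (SD, n = 4 each), a log2 fold change of -0.27 (SE 0.25, 95% interval -0.84 to 0.29, adjusted p = 0.784; exact permutation p = 0.343). Without Klf4 replicate 4 it was -0.53 (SE 0.12, adjusted p = 0.0469), and without both arrays numbered 4 it was -0.53 with an adjusted p of 0.127.

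**Figure D1:**
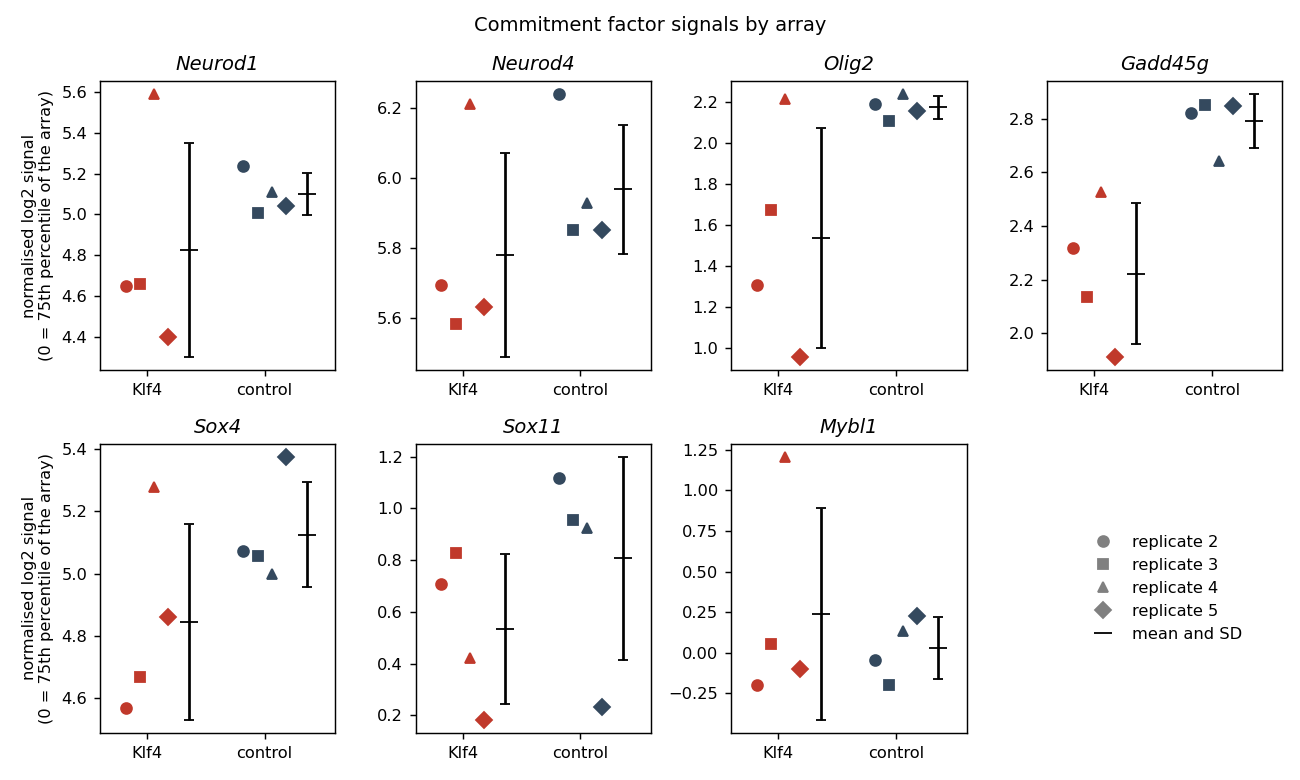
Normalised log2 signal of the 7 commitment factors, 1 panel each with its own vertical scale, with Klf4 arrays left of control arrays, marker shape for the replicate number, and bars for mean and SD (n = 4 each). Klf4 replicate 4 is the highest Klf4 array for Neurod1, Neurod4, Olig2, Gadd45g, Sox4 and Mybl1, and the groups do not overlap for Gadd45g alone.

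Neurod4, which acts in amacrine and bipolar cell formation in mouse, also had its highest Klf4 value on replicate 4, on its brighter probe. That probe read 5.69, 5.58, 6.21 and 5.63 in Klf4 replicates 2 to 5, against 6.24, 5.85, 5.93 and 5.85 in control replicates 2 to 5. Klf4 replicates 2, 3 and 5 were below every control, while replicate 4 was above 3 of the 4 controls. Klf4 samples averaged 5.78 ± 0.29 and controls 5.97 ± 0.19 (SD, n = 4 each), a log2 fold change of -0.19 (SE 0.18, 95% interval -0.60 to 0.22, adjusted p = 0.796; exact permutation p = 0.371). Without Klf4 replicate 4 the value was -0.33 and still missed the threshold (adjusted p = 0.253). The second Neurod4 probe read 0.70, 0.74 and 0.59 in Klf4 replicates 2, 4 and 5, against 1.33, 0.88, 1.04 and 0.69 in control replicates 2 to 5. On this probe Klf4 replicate 4 sat beside the other Klf4 arrays, and 1 control lay within the Klf4 range (-0.31, SE 0.18, adjusted p = 0.611 over all kept probes).

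Olig2, a bHLH factor that marks progenitors near their last division in mouse retina and the oligodendrocyte lineage in brain, was the gene of the 7 with the lowest log2 fold change. Its signals were 1.31, 1.67, 2.22 and 0.95 in Klf4 replicates 2 to 5, against 2.19, 2.11, 2.24 and 2.16 in control replicates 2 to 5. The controls lay within a narrow band, Klf4 replicate 4 fell inside that band, and the other Klf4 arrays were all below it. The means were 1.54 ± 0.54 with Klf4 and 2.17 ± 0.06 in controls (SD, n = 4 each), a log2 fold change of -0.64 (SE 0.25, 95% interval -1.21 to -0.07, adjusted p = 0.336; exact permutation p = 0.114). Without Klf4 replicate 4 the value was -0.86 (SE 0.17, adjusted p = 0.0306), and without both arrays numbered 4 it was -0.84 (adjusted p = 0.0863).

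Of 5 genes of the oligodendrocyte lineage (Olig1, Sox10, Pdgfra, Cspg4 and Mbp), 1 passed as higher with Klf4 and 0 as lower. The 1 was Cspg4, a proteoglycan of oligodendrocyte precursors, and 3.2% of all features passed as higher. The summed level of these genes was 3.06 to 3.76 in Klf4 samples and 1.87 to 2.87 in controls, so that the groups did not overlap. Mbp, the brightest, counts most in that sum. Olig1, the close relative of Olig2 and its neighbour in the genome, read -2.75 ± 0.26 in Klf4 samples and -2.79 ± 0.17 in controls (SD, n = 4 each), a log2 fold change of 0.04 (adjusted p = 0.977). The part of these genes in the Olig2 values was not tested. In sorted bulk samples such as these, fewer cells of a type and less RNA per cell cannot be told apart.

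Gadd45g, a small growth-arrest protein that appears in neural precursors as they leave the cell cycle, was lower in every Klf4 array than in any control. It read 2.32, 2.13, 2.53 and 1.91 in Klf4 replicates 2 to 5, against 2.82, 2.85, 2.64 and 2.85 in control replicates 2 to 5. The nearest arrays of the groups were Klf4 replicate 4 and control replicate 4. Klf4 samples averaged 2.22 ± 0.26 and controls 2.79 ± 0.10 (SD, n = 4 each), a log2 fold change of -0.57 (SE 0.16, 95% interval -0.93 to -0.21), or 0.674 of the control level. This missed the threshold after adjustment over all features (adjusted p = 0.117), and the exact permutation p of 0.0286 is the smallest the design allows. All 4 Klf4 arrays lay below every control for 4.44% of all features.

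The Gadd45g call changed with the processing as well as with 1 array. Without Klf4 replicate 4 the gene fell by 0.67 (log2; SE 0.13, adjusted p = 0.0278). With quantile normalisation, which gives all arrays the same distribution, it fell by 0.62 (adjusted p = 0.0378). There 1 of 7 factors passed, and 4.13% of all features. In the authors' deposited values, tested the same way, it fell by 0.62 (adjusted p = 0.0386, 1 of 7, 4.08% of all features). These 2 alternatives gave nearly the same fold changes for all 7 factors, such as -0.31 in both for Neurod1 and 0.18 in both for Mybl1. They are thus not 2 separate checks. Without both arrays numbered 4 the value was -0.72 and the adjusted p 0.05003. The relatives Gadd45a and Gadd45b had log2 fold changes of -0.23 (adjusted p = 0.805) and 0.67 (adjusted p = 0.193).

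**Figure D2:**
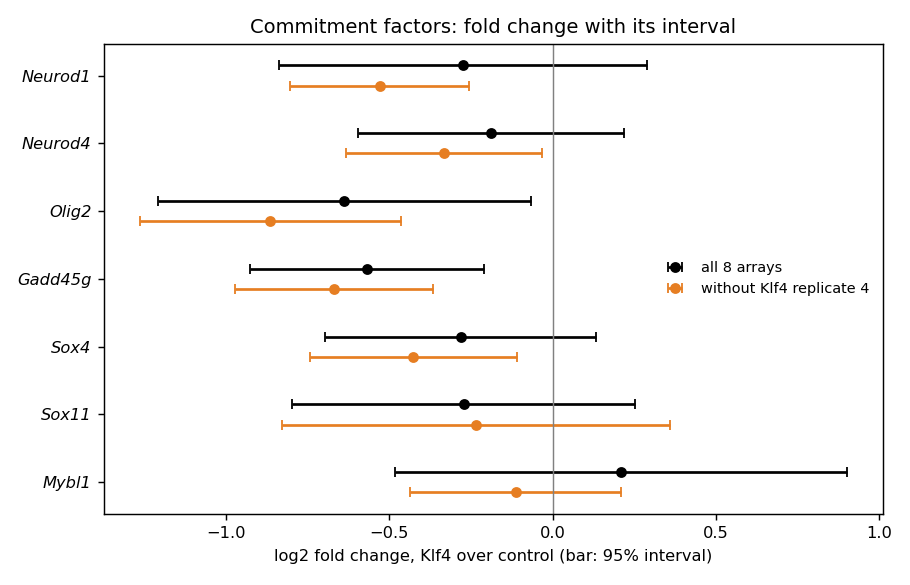
Log2 fold change, Klf4 over control, of the 7 commitment factors with its 95% interval from limma, over all 8 arrays (black) and without Klf4 replicate 4 (orange). Over 8 arrays the intervals of Olig2 and Gadd45g lie below 0, and without that array those of Neurod1, Neurod4 and Sox4 do too; these intervals are not adjusted for the number of features.

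Sox4 and Sox11 are SoxC factors, needed in mouse for retinal ganglion cell differentiation. The brightest of the 3 Sox4 probes represented the gene, and read 4.57, 4.67, 5.28 and 4.86 in Klf4 replicates 2 to 5, against 5.07, 5.06, 5.00 and 5.38 in control replicates 2 to 5. Again Klf4 replicates 2, 3 and 5 lay below every control and replicate 4 above 3 of the 4 controls. The means were 4.84 ± 0.31 with Klf4 and 5.13 ± 0.17 in controls (SD, n = 4 each), a log2 fold change of -0.28 (SE 0.18, 95% interval -0.70 to 0.13, adjusted p = 0.663; exact permutation p = 0.2). Without Klf4 replicate 4 it was -0.43 (adjusted p = 0.154).

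The other Sox4 probes put the same array at the opposite end. The second read 2.58, 2.58, 1.33 and 2.80 in Klf4 replicates 2 to 5, against 3.06, 2.91, 2.68 and 3.36 in control replicates 2 to 5. The third read -1.47, -1.19, -1.86 and -1.46 in Klf4 replicates 2 to 5, against -0.95, -1.23, -0.61 and -0.99 in control replicates 2 to 5. On both, Klf4 replicate 4 was the lowest of all 8 arrays, and the groups still overlapped by 1 pair of arrays. The log2 fold changes were -0.68 for the second probe (SE 0.32, adjusted p = 0.472) and -0.55 for the third (SE 0.19, adjusted p = 0.241), with an exact permutation p of 0.0571 for each. All 3 probes were thus below 0, and none of the 10 probes passed in the fit of single probes, where 3.63% of 34730 did.

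Set against the control mean of each probe, Klf4 replicate 4 read 0.15 on the brightest Sox4 probe, -1.67 on the second and -0.91 on the third. These probes share a transcript and lay 1.82 apart on that array, against 0.13 to 0.32 on the other 3 Klf4 arrays and 0.11 to 0.66 on the controls. Probes of 1 gene lay further apart there in general. Over 2924 genes with more than 1 kept probe, the median distance between a gene's highest and lowest probe was 0.64 on Klf4 replicate 4, against 0.15 to 0.23 on the other Klf4 arrays and 0.11 to 0.25 on the controls. On Klf4 replicate 4, 11.9% of these genes had probes at least as far apart as Sox4. On control replicate 4, where the Sox4 probes lay 0.66 apart and the median was 0.12, 2.98% did. The share was 30.1 to 55.1% on the remaining arrays.

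**Figure D3:**
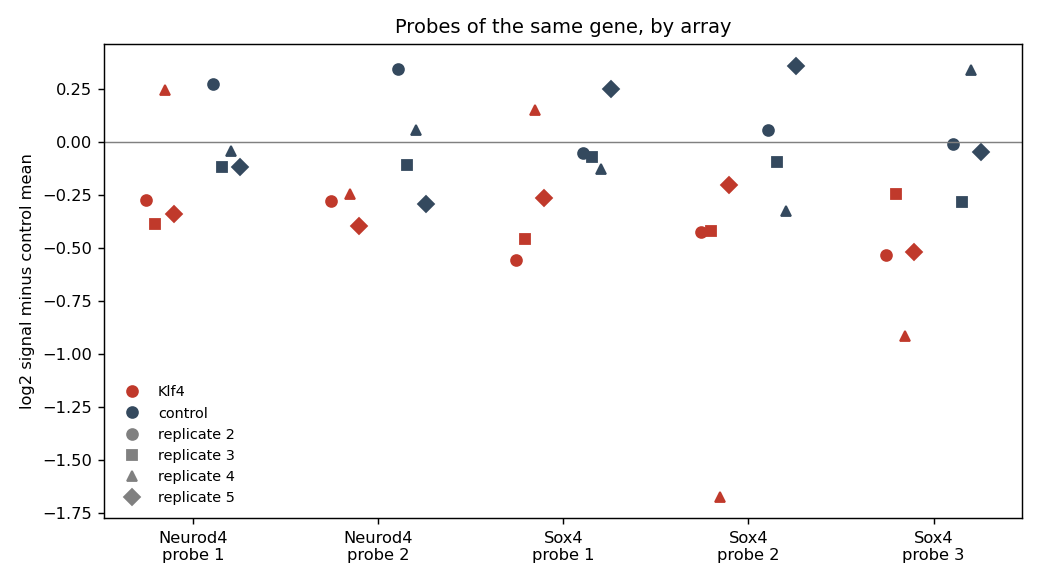
Log2 signal minus the probe's control mean for the Neurod4 and Sox4 probes on each array, Klf4 (red) left of control (blue), marker shape for the replicate number. Klf4 replicate 4 reads 0.15, -1.67 and -0.91 on the Sox4 probes, and the second Neurod4 probe has no point for Klf4 replicate 3.

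Sox11 was lowest in the second scan in both groups. It read 0.71, 0.83, 0.42 and 0.18 in Klf4 replicates 2 to 5, against 1.12, 0.95, 0.92 and 0.23 in control replicates 2 to 5. The lowest array of each group was replicate 5, from the second scan. The means were 0.53 ± 0.29 with Klf4 and 0.81 ± 0.39 in controls (SD, n = 4 each), a log2 fold change of -0.27 (SE 0.23, 95% interval -0.80 to 0.25, adjusted p = 0.763; exact permutation p = 0.257). Within the first scan the difference was -0.35 (adjusted p = 0.449), within the second it was -0.05 with 1 array a group, and fitted with scan as a block it was -0.27 (SE 0.13, adjusted p = 0.377). The value without Klf4 replicate 4 was -0.23 (adjusted p = 0.826).

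For the other factors the difference was in the same direction in both scans, except Mybl1. In the first scan (3 arrays a group) and the second (1 a group), it was -0.15 and -0.64 for Neurod1, -0.18 and -0.22 for Neurod4, -0.45 and -1.21 for Olig2, -0.45 and -0.94 for Gadd45g, and -0.20 and -0.51 for Sox4. For Mybl1 the first scan gave 0.39 and the second -0.33. None of the 7 passed in the first scan alone, where 614 of 29127 features passed as higher and 50 as lower.

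Mybl1, or A-Myb, a Myb family transcription factor known for its role in male meiosis in mouse, was the gene of the 7 with a log2 fold change above 0. It read -0.20, 0.05, 1.21 and -0.10 in Klf4 replicates 2 to 5, against -0.04, -0.20, 0.13 and 0.23 in control replicates 2 to 5. Klf4 replicate 4 stood alone above all other arrays, and the remaining Klf4 arrays lay among the controls. The means were 0.24 ± 0.65 with Klf4 and 0.03 ± 0.19 in controls (SD, n = 4 each), a log2 fold change of 0.21 (SE 0.30, 95% interval -0.48 to 0.90, adjusted p = 0.891; exact permutation p = 0.83). The sign turned without Klf4 replicate 4, to -0.11 (adjusted p = 0.861).

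A position of the Klf4 arrays was shared by several of the genes. In Neurod1, Neurod4, Olig2, Gadd45g and Sox4, that is 5 of the 7, Klf4 replicates 2, 3 and 5 all lay below every control, as they did for 9.32% of all features. Those arrays all lay above every control for 8.02%. The 3 arrays were grouped with the values known, and all genes are read on the same arrays, so this count is a description and not a test. Klf4 replicate 4 spread its signals more widely than the others, with an SD of 3.05 across features against 2.77 to 2.99 on the other 7 arrays. Its features among the 5% brightest in controls, a group that holds Neurod1, Neurod4 and Sox4, had a median of 0.15 above the control mean, and its dimmest 60% a median of -0.22. Control replicate 5 had a median of 0.20 in the same 5%. Quantile normalisation removes such differences of distribution. After it, Klf4 replicate 4 read 5.45 for Neurod1, above all controls, and 6.09 for Neurod4, above 3 of the 4. It then read 5.13 for Sox4, above 1 of the 4 controls, and lay below all controls for Olig2 (2.05) and Gadd45g (2.34). With array weights, by which limma lowers the influence of arrays that fit less well, 4 of the 7 passed as lower with Klf4, where 9.92% of all features passed and 3.9% passed as lower. These were Neurod1 at -0.45 (adjusted p = 0.0388), Olig2 at -0.72 (adjusted p = 0.0110), Gadd45g at -0.55 (adjusted p = 0.0118) and Sox4 at -0.38 (adjusted p = 0.0432).

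Genes around these factors in the pathway were described from 7 lists of 70 genes, of which 61 were on the array by name and 59 were tested. Of the 59, 11 were higher with Klf4 (3.2% of all features were), 0 were lower and 18 had an unadjusted limma p under 0.05 (11.9% of all features did), and the median log2 fold change was 0.03. Among the other proneural bHLH factors 3 of 13 rose and 0 fell, with a list median of 0.00. Atoh7, the factor required for ganglion cell genesis in mouse, averaged 1.44 ± 0.33 in Klf4 samples and -1.31 ± 0.34 in controls (SD, n = 4 each), a log2 fold change of 2.76 (SE 0.23, adjusted p = 0.000348). Neurog1, a proneural factor of sensory and cortical neurons, averaged 0.82 ± 0.54 in Klf4 samples and -1.27 ± 0.46 in controls (SD, n = 4 each; 2.09, SE 0.31, adjusted p = 0.00737). For both, all Klf4 arrays were above all controls. Ptf1a, the factor of horizontal and amacrine cell fate, rose by 0.68 (SE 0.15, adjusted p = 0.0468).

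Of the E protein partners and corepressors 1 of 6 rose and 0 fell, with a median of 0.05. It was Tcf3, the gene of E proteins E12 and E47, at 3.11 ± 0.09 in Klf4 samples and 2.48 ± 0.13 in controls (SD, n = 4 each; 0.63, SE 0.12, adjusted p = 0.0266). None of the 9 Id and Hes antagonists passed with limma (3 at an unadjusted p under 0.05, against 11.9% of all features), with a median of 0.01. Id1, which binds E proteins without binding DNA, had a log2 fold change of 1.21 (adjusted p = 0.0694), and Heyl, a Notch target repressor, one of 0.83 (adjusted p = 0.0709). Id1 passed in 6 of 22 alternatives, among them the fit without Klf4 replicate 5 (1.48, adjusted p = 0.0101) and that with scan as a block (1.21, adjusted p = 0.0229). Of the genes of the neurogenic intermediate state 1 of 8 rose, Sstr2, a somatostatin receptor, by 1.51 (SE 0.23, adjusted p = 0.00738), and 0 fell, with a median of -0.02. Dll1, the Notch ligand of committing cells, given here although chosen after its values were seen, read 1.44 ± 0.28 in Klf4 samples and 1.96 ± 0.19 in controls (SD, n = 4 each; -0.52, adjusted p = 0.234).

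Among Sox relatives 1 of 6 rose and 0 fell, with a median of 0.07. Sox5, a SoxD factor, averaged -0.86 ± 0.46 in Klf4 samples and -3.04 ± 0.24 in controls (SD, n = 4 each; 2.18, SE 0.24, adjusted p = 0.00148), and its other probes gave 0.87 and 2.53. None of the 4 Gadd45 and Myb relatives passed (1 at an unadjusted limma p under 0.05, against 11.9% of all features), with a median of -0.17.

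Early neuron genes, several of them known to be switched on by SoxC or NeuroD factors, rose in 5 of 13 (3.2% of all features did) and fell in 0. The list median was 0.21, with 9 genes above 0 and 4 below, and 6 had an unadjusted limma p under 0.05 (11.9% of all features did). Of those 6, Map2 alone was below 0, at -0.58 (adjusted p = 0.280), and is named here after its values were seen. Stmn2, a tubulin-binding protein of growing axons, averaged 3.05 ± 0.56 in Klf4 samples and -0.33 ± 0.76 in controls (SD, n = 4 each; 3.38, SE 0.41, adjusted p = 0.00236). Tubb3, the neuronal beta-tubulin, averaged 2.53 ± 0.21 in Klf4 samples and 0.67 ± 0.25 in controls (SD, n = 4 each; 1.86, SE 0.17, adjusted p = 0.000625). Rbfox3, the gene of the neuronal splicing factor NeuN, rose by 2.13 (SE 0.36, adjusted p = 0.0127). Gap43, a growth cone protein, rose by 1.09 (SE 0.22, adjusted p = 0.0297), and Elavl3, a neuronal RNA-binding protein, by 1.09 (SE 0.21, adjusted p = 0.0256).

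Of the 11 rises, 7 kept their calls in each fit without a single array: Atoh7, Neurog1, Sstr2, Sox5, Stmn2, Tubb3 and Rbfox3. Ptf1a lost its call in 7 of those 8 fits, all but that without control replicate 5 (adjusted p 0.0586 to 0.151). Tcf3 lost it in 6, without Klf4 replicates 2, 3 or 5 or control replicates 2, 3 or 4 (adjusted p 0.0637 to 0.107). Elavl3 lost it in 6, without Klf4 replicates 2, 3 or 5 or control replicates 2, 4 or 5 (adjusted p 0.0595 to 0.0835), and Gap43 in 5, without Klf4 replicate 2 or any 1 control (adjusted p 0.0570 to 0.108). Sizes moved less: over these fits the values ranged from 0.61 to 0.76 for Ptf1a, 0.60 to 0.70 for Tcf3, 0.95 to 1.25 for Elavl3 and 0.90 to 1.23 for Gap43.

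**Figure D4:**
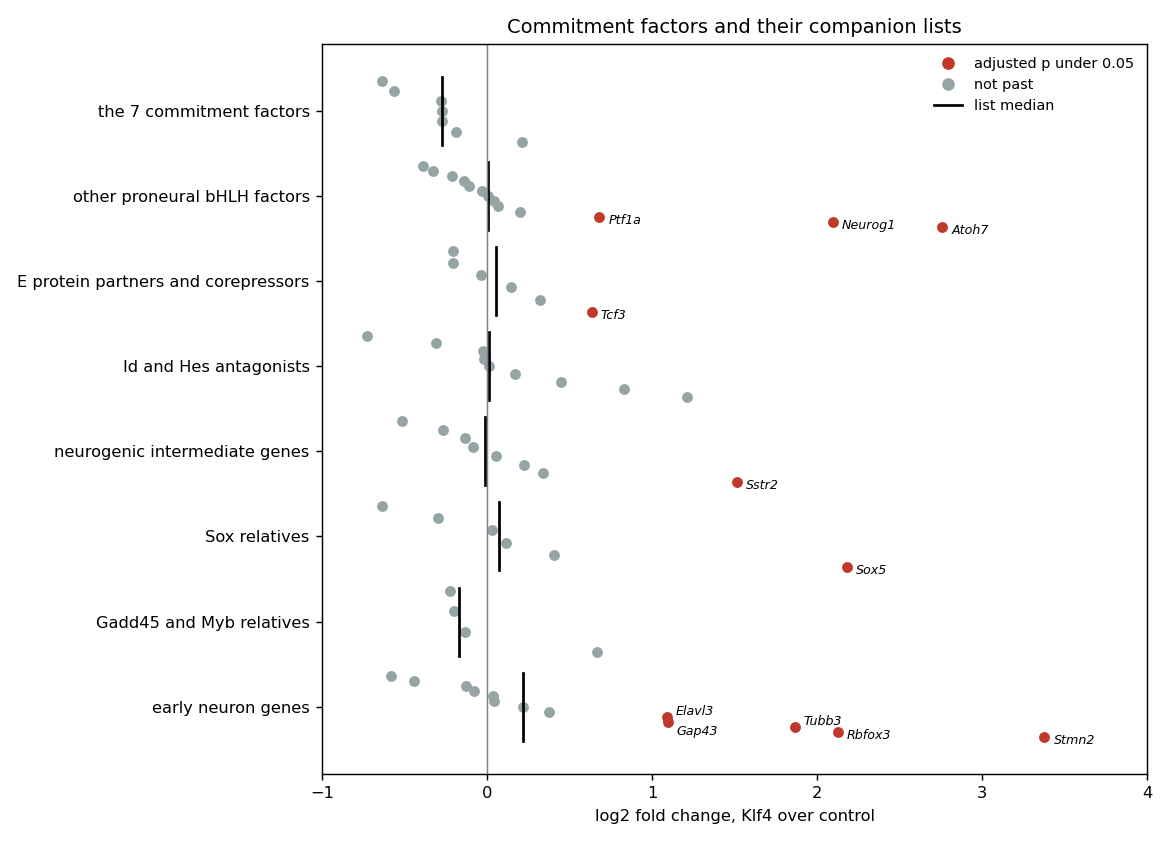
Log2 fold change, Klf4 over control, of each tested gene in 7 pathway lists and of the 7 commitment factors, which form the top group. Red points passed an adjusted p of 0.05, grey points did not, and black bars are list medians. All 11 red points lie above 0, as did 87.3% of all features that passed. Of the 7 commitment factors 6 lie below 0, as did 18280 of all 29988 features tested.

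Markers of other cell types gave the following summed levels, the log2 of a list's signals added on the linear scale. Every list gene on the array enters its sum, kept or not. The brightest gene, which counts most, was Cx3cr1 for microglia, Kdr for endothelium, Col1a1 for pericytes and fibroblasts and Pax2 for astrocytes. It was Mitf for pigment epithelium, Crygs for lens and Ahsp for red blood cells. Microglia markers had 2.35 to 2.59 in Klf4 samples and 2.11 to 2.53 in controls (6 of 8 kept, C1qb higher, Ptprc not well above background on any array). Endothelial markers had 6.55 to 7.33 in Klf4 samples and 6.63 to 6.89 in controls (5 of 8 kept, Esam and Tek higher). Pericyte and fibroblast markers had 3.28 to 3.62 in Klf4 samples and 2.58 to 3.09 in controls, which did not overlap (5 of 8 kept, Col1a1 higher, Lum not well above background on any array). Astrocyte markers had -0.96 to -0.61 in Klf4 samples and -1.82 to -0.85 in controls (4 of 5 kept, S100b higher). In the pigment epithelium, lens and red blood cell lists no member passed the threshold. Pigment epithelium markers had 4.74 to 6.48 in Klf4 samples and 4.93 to 5.89 in controls (1 of 7 kept, Mitf, with Tyr and Tyrp1 not well above background on any array). Lens markers had 1.22 to 1.42 in Klf4 samples and 1.44 to 1.81 in controls, which did not overlap (4 of 5 kept). Red blood cell markers had -1.09 to -0.92 in Klf4 samples and -1.58 to -0.97 in controls (2 of 5 kept, Hbb not well above background on any array). Their part in the results above was not tested.

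To show which genes ran alongside each factor, 13489 genes were ranked by the root mean square difference of their centred signals over the 8 arrays. The nearest to Neurod1 were Agap1 (0.0690), Mtmr14 (0.0771) and Kcnk1 (0.0831), and to Neurod4 Or2b4 (0.0589), Mab21l4 (0.0734) and Asl (0.0828). The nearest to Olig2 were Sat1 (0.0861), Pabpc4l (0.111) and Ctsc (0.116), and to Gadd45g Fgfrl1 (0.0921), Iqcm (0.0972) and Thrb (0.111). These are descriptions over arrays that share Klf4 replicate 4. Sox4 ran closest to Ccdc149 (0.0485), Bbs4 (0.0593) and Igbp1 (0.0605), Sox11 to Rasgrp4 (0.0485), Jpx (0.0632) and Tmprss3 (0.0658), and Mybl1 to Thnsl1 (0.100), B4galt6 (0.107) and Ttc33 (0.109). None of these 21 genes passed the limma threshold (3.67% of all features did). They were picked for lying near factors that did not pass, so this is no separate result.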

How the data were processed

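RNA was measured on 8 single-colour Agilent arrays on 1 slide. The deposited intensity values are background-subtracted signals from Feature Extraction 10.7.3.1, per the file headers, and the deposited flags (unit other: control type, well above background, saturated, outlier) are from the same software. The authors also deposited log2 values whose making no source used here describes. They share a column median of 7.54 and served only as an alternative.

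Outlier and control spots were left out, a probe's log2 signals were averaged over its spots, and the 75th percentile over gene probes was taken off, array by array. A probe entered the test if 3 or more of the 4 arrays in either group read it well above background, and a gene was its kept probe of highest mean. Names came from a RefSeq table of assembly GRCr8 (21109 probes with 1 symbol, 0 with several, 24489 with none). Probes with no symbol stayed in the test under their accession. The file headers name another build, rn4, and no coordinate was taken from the files.

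Klf4 was set against control in limma 3.58.1 (R 4.3.3; lmFit, eBayes; two-sided, no covariates), with Benjamini-Hochberg adjustment over 29988 features. The fit was tested on simulated data, with no outcome given here. Figures used matplotlib 3.10.9 in Python 3.11.15. Precision is limited by the number of arrays.

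The 7 factors and the lists were chosen with earlier results of these data known. Named genes are the 7 factors with all probes, each list gene past the threshold, the 2 with the largest absolute fold change from a list with none, and the 3 nearest genes to each factor. List genes not on the array by name (Neurog2, Jag2, Hes6, Insm1, Foxn4, Sox1, Sox3, Sox21 and Myb) were not analysed here, and some list and marker genes are not reported here. Alternatives covered background correction, scaling, the filter on dim probes, the choice of probe, array weights, scan, slide row and replicate number as blocks, and each array left out. Normexp on median signals was chosen after seeing the data, because the files hold no mean signal.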

Additional observations from a re-analysis of the deposited data

Results flagged for a closer look

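In 5 of 49 groups of 4 arrays examined, over the probes of the factors and the named list genes, 1 array stood far from the other 3 (a gap to the nearest that took up most of the group's range). Chance gives about 1 in 20 such groups. The second Sox4 probe read 1.33 in Klf4 replicate 4, against 2.58 to 2.80 in the other Klf4 arrays. Gadd45g read 2.64 in control replicate 4, against 2.82 to 2.85 in the other controls. Elavl3 read 1.76 in Klf4 replicate 5, against 1.26 to 1.33 in the other Klf4 arrays. Atoh7 read -1.83 in control replicate 5, against -1.15 to -1.14 in the other controls, and Tubb3 read 0.29 there, against 0.75 to 0.84. Both arrays numbered 5 were from the second scan, and both numbered 4 were outside the scanner software's limits; the part of either was not tested.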

How the results depend on the processing

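Over the 7 factors and 15 named list genes and 22 alternatives, 425 of 484 values kept direction and side of the threshold, 38 lost a call, 17 gained 1 and 4 changed sign. The sign changes were Neurod4 at 0.37 when its probes were averaged, where the missing spot leaves only the brighter probe on Klf4 replicate 3, and Mybl1 at -0.0341 with array weights, -0.0784 without both arrays numbered 4 and -0.11 without Klf4 replicate 4; the cause of the Mybl1 changes was not tested. The number of factors past the threshold, 0 of 7, was 1 with quantile normalisation, 1 with the authors' values, 4 with array weights and 0 to 3 with single arrays left out. Features called higher, 961, were 1805 with array weights, 614 in the first scan alone (fewer arrays) and 571 to 1215 with single arrays left out. Features called lower, 140, were 93 scaled to the array median, 70 with no filter, 1171 with array weights, 255 when scan was a block, 50 from the first scan only and 32 to 407 with single arrays left out. List genes called higher, 11, were 7 without both arrays numbered 4 and 7 to 10 with single arrays left out, and those called lower, 0, were 2 with array weights. Of the rises, Rbfox3 (adjusted p = 0.100), Elavl3 (0.128) and Ptf1a (0.0869) lost their calls when only the first scan was fitted. With the replicate number as a block, 0 of 7 factors, 841 higher and 101 lower features were called, Elavl3 lost its call and Id1 gained 1. The deviations of same-numbered arrays correlated at 0.36, 0.24, 0.06 and 0.55 for numbers 2 to 5. Klf4 replicates 2, 3 and 5 each correlated best with the control of the same number, and Klf4 replicate 4 with control replicate 3. No label says what the numbers mark, so the main fit did not take them as pairs, and whether they are pairs was not tested.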
